A study of Mus musculus with 6 samples.

Results

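Heat shock proteins and chaperones of germ cells, and general ones beside them, were followed in whole testis of male C57BL/6 mice, which were neonatal (6 days old) or adult (8 weeks old). They comprise 10 genes, matched to mRNA probes through RefSeq accessions, out of 19049 genes named by an mRNA probe. They were chosen by name from the heat shock protein and chaperone families, with earlier results of these data known. The same holds for the lists below, so the shares of all genes beside their counts give a scale and are not a test. The 10 genes are read by 12 of the 22464 mRNA probes, because Hspa2 and Calr3 have more than 1 probe each. Of these, 6 are known from germ cells (Hspa2, Hspa1l, Hspa4l, Dnajb13, Clgn and Calr3), and 4 serve cells in general (Hspa8, Hsp90aa1, Calr and the transcription factor Hsf2). RNA of each age was hybridized in 1 colour to 3 arrays, and each array stands for a group of mice, into which the authors divided the animals of an age. The p-values therefore rest on such groups, not on single mice. In the main fit they measure how the adult minus neonatal difference varies between replicate numbers, with the spread partly shared over all probes.

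Heat shock proteins of the HSP70 family bind unfolded stretches of other proteins and release them in a cycle driven by ATP, helped by J-domain proteins and nucleotide exchange factors. HSP90 proteins act later, on clients that are nearly folded, and the lectins calreticulin, calnexin and their relatives hold glycoproteins in the endoplasmic reticulum. Male germ cells make their own versions of several of these proteins, mostly during meiosis and in spermatids, which neonatal testis does not yet contain.

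Signals were divided by the 75th percentile of their array and put on the log2 scale, which is called normalized log2 signal here. That percentile was 2947, 2501 and 1384 on the neonatal arrays, taken here and throughout in the order of the replicates, and 1855, 1425 and 747.9 on the adult arrays. The ages were compared in a limma fit that holds the replicate number as a block, and p-values were adjusted by the Benjamini-Hochberg method over all lncRNA and mRNA probes tested. A gene is said to have risen or fallen where the adjusted p was at most 0.05 and the change at least 2-fold, and a change of at least 5-fold, the threshold of the study's methods, is named as such. Spots that the scanner software marked as outliers were left out, which took 30.7% and 25.4% of the spots of neonatal and adult replicate 3. Replicate 3 of both ages shared 1 scan identifier and date in the scanner output, and the other 4 arrays another. Each such set is called a slide here, though no sample label names a slide. For replicate 3 an effect of the slide and one of the number therefore cannot be told apart.

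All 10 genes stood well above background somewhere among the 6 arrays. Of the 6 germ-cell genes, 4 passed 5-fold upward with age (Hspa2, Hspa1l, Dnajb13 and Clgn), beside 12.6% of the 15121 mRNA probes tested. At 2-fold the count was 5, with Hspa4l, beside 23.3% of mRNA probes. None of the 6 fell in the limma fit, and 0 were lower at an unadjusted p of at most 0.05. Among the 4 general genes a single one could be tested with marked spots left out. Hsf2 fell by more than 2-fold, as did 36.6% of mRNA probes, and it did not pass 5-fold, where 13.7% of mRNA probes were lower. The other 3, Hspa8, Hsp90aa1 and Calr, had marked spots on too many arrays, and their values are given with these spots kept. In that setting 19310 mRNA probes were tested, of which 12.8% were higher and 15.4% lower at 5-fold, and 23.0% higher and 39.0% lower at 2-fold. Hspa8 then fell by over 5-fold, Calr fell and Hsp90aa1 rose. In whole tissue, fewer cells of a type and less RNA per cell cannot be told apart.

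Hspa2 encodes an HSP70 protein of spermatocytes and spermatids that is needed to complete male meiosis. Its brighter probe (NM_008301) read 1.64, 1.44 and 1.65 on the neonatal arrays and 6.18, 6.16 and 6.47 on the adult arrays, as normalized log2 signal. All 3 adult arrays lay far above all 3 neonatal arrays, and each age was tight. The log2 fold change was 4.63 (SE 0.15, limma adjusted p = 0.00038), a rise of 24.7-fold, fitted without replicate 3 because both of its spots were marked. The other probe (NM_001002012) gave 4.57 (SE 0.15, limma adjusted p = 0.000403).

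Hspa1l, an HSP70 gene next to the stress-inducible Hspa1a and Hspa1b that is used mainly in spermatids, read -0.98, -0.53 and 0.54 on the neonatal arrays and 6.45, 6.60 and 7.36 on the adult arrays. The ages did not overlap, and replicate 3 was the highest array of both. The log2 fold change of 7.13 (SE 0.16, limma adjusted p = 9.93e-05) was the largest among the members measured at both ages and equals 139.7-fold.

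Hspa4l encodes an HSP110 protein, a relative of HSP70 that exchanges its nucleotide, and is abundant in germ cells. It read 1.72, 1.36 and 1.31 on the neonatal arrays and 3.77, 3.80 and 3.74 on the adult arrays. The adult arrays nearly coincided and stood above every neonatal array. Its log2 fold change of 2.25 (SE 0.18, limma adjusted p = 0.00226) is 4.75-fold, just under the 5-fold threshold, again without replicate 3, and the call was lost with the methods' t-test (unadjusted p = 0.0549 in that paired test on 2 pairs).

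Clgn encodes calmegin, a testis relative of calnexin that helps fold sperm membrane proteins in the endoplasmic reticulum. It read -0.43, -0.41 and 0.12 on the neonatal arrays and 4.99, 5.14 and 5.83 on the adult arrays. No neonatal array came near an adult one. The log2 fold change was 5.56 (SE 0.11, limma adjusted p = 8.78e-05), which is 47.2-fold.

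Calr3 encodes calsperin, the calreticulin of germ cells, and its probes disagree. The brighter one (NM_029782) read -4.48, -4.45 and -4.88 on the neonatal arrays and -4.30, -5.08 and -5.69 on the adult arrays. These ages overlapped, and the log2 fold change of -0.42 (SE 0.23, limma adjusted p = 0.177) did not pass the test. The other probe (NM_028500) was not well above background on any neonatal array and read -2.66, -2.87 and -2.39 on the adult arrays. Its rise was at least 22.5-fold. All its neonatal values were set to the floor, so the limma adjusted p of 0.000129 is for the fitted change and does not test that bound. After normexp background correction with an offset of 50, however, the fitted log2 fold change was 2.30, less than that bound and under 5-fold. By the rule of the brighter probe, which takes the mean over both ages, Calr3 counts as not called. In adult testis alone the other probe read higher. The mean of both probes passed at 2.09 (limma adjusted p = 0.00074), with the other probe at the floor in neonatal testis. Which probe reads the main transcript of adult testis was not tested.

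Dnajb13 encodes a J-domain protein of the sperm flagellum, a part of the radial spokes. It was not well above background on any neonatal array and read -1.48, -2.26 and -1.73 on the adult arrays. All adult arrays were clearly above background. Its rise was at least 39.6-fold, while after normexp the fitted log2 fold change was 3.44, which is less than that bound. All its neonatal values were set to the floor and so have no spread. The limma adjusted p of 0.00015 is for the fitted change from the floor and does not test the bound. Such bounds set the mean of the adult arrays against the lowest signal well above background on each neonatal array, or the probe's own signal where that is higher, and they hold for the main background correction only.

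**Figure D1:**
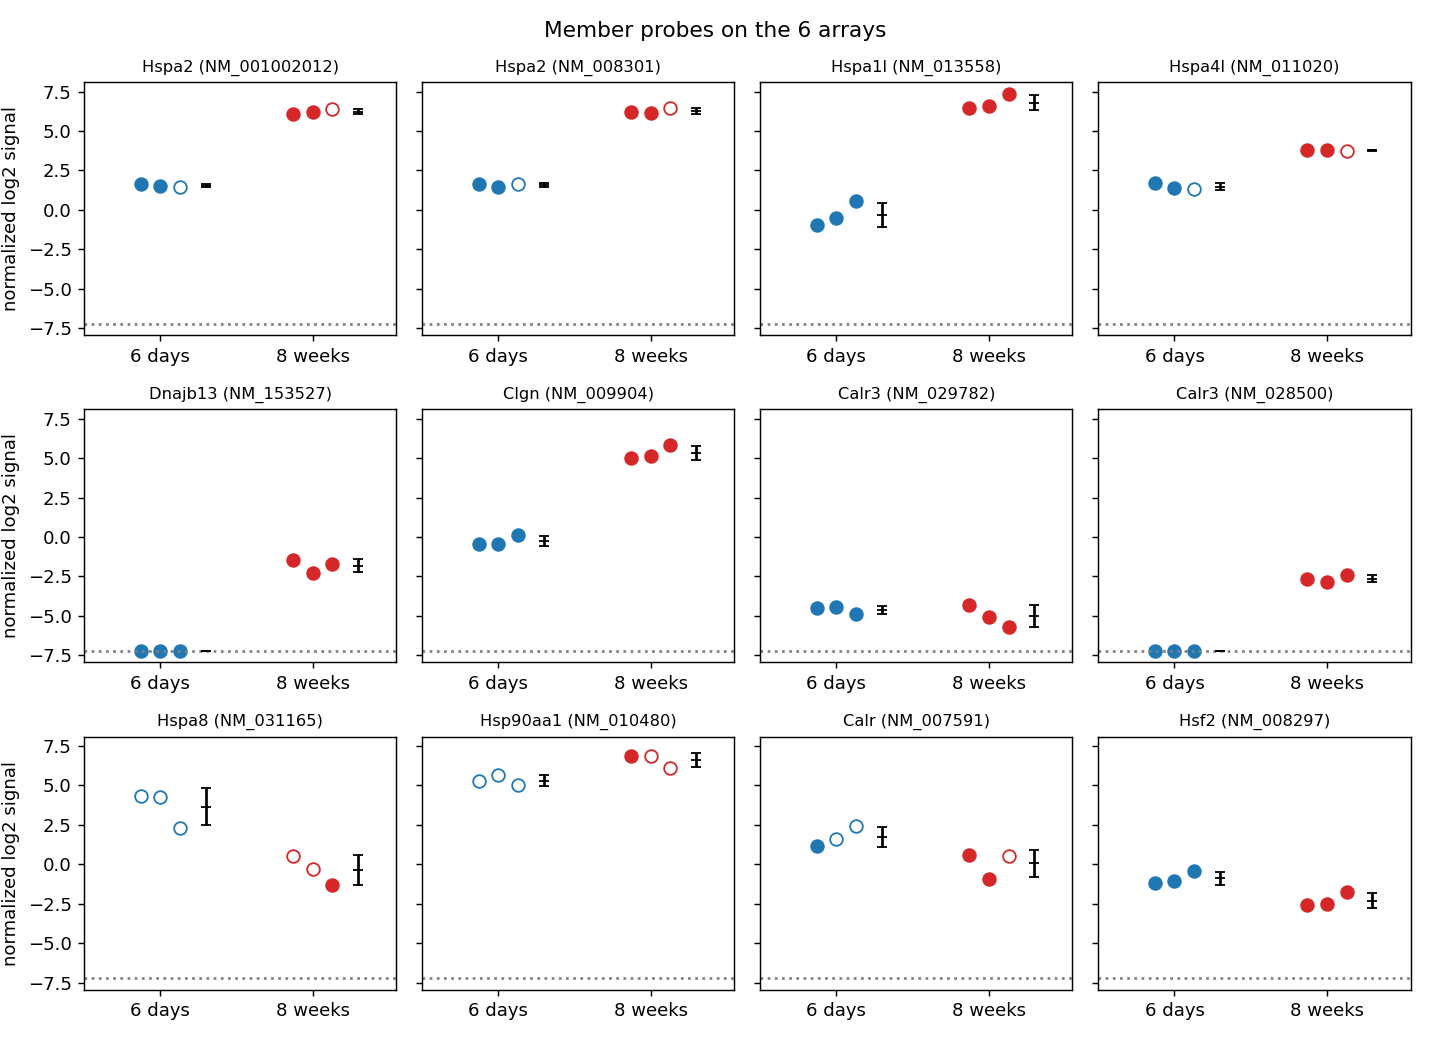
Normalized log2 signal (vertical axis) of the 12 member probes in neonatal (6 days, blue) and adult (8 weeks, red) testis, 1 point per array in the order of the replicates, with open points for spots marked as outliers, black bars for the mean ± SD of 3 arrays with all spots kept and a dotted line at the floor of -7.22. The Hspa1l arrays lie between -0.98 and 0.54 in neonatal and between 6.45 and 7.36 in adult testis, while those of Hspa8 run the other way.

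Hspa8 encodes HSC70, the HSP70 protein that all cells make without stress. With marked spots kept it read 4.35, 4.27 and 2.29 on the neonatal arrays and 0.53, -0.30 and -1.35 on the adult arrays. Every adult array was below every neonatal array, and replicate 3 was the lowest of each age. The log2 fold change was -4.01 (SE 0.23, limma adjusted p = 0.000189), but 5 of the 6 spots were marked as outliers. Leaving out arrays gave -4.68 to -3.52.

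Hsp90aa1, the inducible HSP90 gene, is also strongly used in germ cells. It read 5.26, 5.66 and 5.0 on the neonatal arrays and 6.84, 6.86 and 6.11 on the adult arrays, with marked spots kept. The ages did not overlap, though the gap was small. Its log2 fold change of 1.30 (SE 0.15, limma adjusted p = 0.00152) shrank to 0.53 after quantile normalization and then did not pass (limma adjusted p = 0.0547).

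Calr encodes calreticulin, the calcium-binding lectin of the endoplasmic reticulum. It read 1.15, 1.59 and 2.43 on the neonatal arrays and 0.57, -0.91 and 0.49 on the adult arrays, with marked spots kept. The ages did not overlap, but neonatal replicate 1 lay close to adult replicate 1. The log2 fold change of -1.67 (SE 0.41, limma adjusted p = 0.0181) is the least secure among the members. Without both arrays of replicate 2 it was -1.26 (limma adjusted p = 0.0879) and without those of replicate 3 it was -1.54 (limma adjusted p = 0.15). Dropping neonatal replicate 2, neonatal replicate 3 or adult replicate 2 alone also ended the call, at -1.74, -1.32 and -1.19.

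Hsf2 encodes a heat shock transcription factor with a known part in spermatogenesis. It read -1.17, -1.08 and -0.40 on the neonatal arrays and -2.58, -2.55 and -1.78 on the adult arrays. The adult arrays were all lower, and replicate 3 was the highest of each age. Hsf2 had no marked spot and fell by 1.42 on the log2 scale (SE 0.10, limma adjusted p = 0.000626). Without adult replicate 1 or adult replicate 2, in fits with no block, the adjusted p from limma was 0.0501 and 0.0506.

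The members' changes were also taken within each slide. On the slide with replicates 1 and 2 the log2 fold change was 4.63 for Hspa2 (brighter probe), 7.28 for Hspa1l, 2.25 for Hspa4l and 5.49 for Clgn. On the slide with replicate 3 alone, where no test is possible and marked spots were kept, the adult minus neonatal difference of the same genes was 4.82, 6.81, 2.44 and 5.71. Dnajb13 was well above background on the adult arrays alone on both slides. For Hspa8, Hsp90aa1, Calr and Hsf2 the values were -4.20, 1.39, -1.54 and -1.44 on the first slide and -3.64, 1.1, -1.94 and -1.38 on the other. Each of these genes moved the same way on both slides, and Calr did not pass on the first (limma adjusted p = 0.107, fitted without a replicate block). The brighter probe of Calr3 was at -0.22 on the first slide (0.18 and -0.62 by replicate) and at -0.81 on the other, and so did not move one way, while its second probe was well above background on adult arrays alone. With the slide as the block in place of the replicate number the log2 fold changes stayed as they were, and Calr still passed (limma adjusted p = 0.0132).

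The log2 ratio of each of 8 genes to a counterpart, of which 6 set a germ-cell gene against a general one and 2 a general gene against another, was taken on every array and compared between ages by a two-sided exact permutation test. With marked spots left out 2 pairs could be tested, on 2 arrays per age, where p cannot go below 0.333. The difference was 5.41 for Clgn to Canx and -1.41 for Hsf2 to Hsf1 (exact p = 0.333 each). With these spots kept all 8 pairs had 3 arrays per age, where p cannot go below 0.1. The ratios of 7 pairs (all but Calr3 to Calr) then did not overlap between ages. In 1 of them Dnajb13 was at the floor in neonatal testis. The exact permutation p of these pairs was 0.1 each, or 0.114 after adjustment over the 8 pairs. The share of other gene pairs without overlap was not taken, so the count shows nothing particular to these pairs.

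In that setting Hspa2 rose against Hspa8 by 8.70 ± 0.51 on the log2 scale (mean ± SD of the 3 differences within a replicate number). For Hspa1l against Hspa8 the same difference was 11.14 ± 0.64. Leaving out arrays gave 8.12 to 9.41 for Hspa2 and 10.37 to 12.24 for Hspa1l. Both share Hspa8 and so are not independent. Hspa4l against Hspa4, the general HSP110 gene, gave 2.83 ± 0.83, with an overlap after normexp (2.53, exact permutation p = 0.2). Hspa4 by itself did not pass the test (-0.52, limma adjusted p = 0.274), but all 6 of its spots were marked and its replicates differed (-1.12, -0.99 and 0.55). Without replicate 3 it was at -1.05 and passed (limma adjusted p = 0.012). Clgn against Canx, its counterpart in all cells, gave 5.35 ± 0.22, and Canx did not pass (0.21, limma adjusted p = 0.318). With marked spots left out Canx was at 0.07 (limma adjusted p = 0.755), and at -0.19 with arrays also shifted to the median. Hsp90aa1 against Hsp90ab1, the HSP90 gene that cells make without stress, gave 5.77 ± 0.52. Hsp90ab1 itself fell by 4.47 on the log2 scale (limma adjusted p = 0.000139). Hsf2 against Hsf1 gave -1.32 ± 0.16, and Hsf1 did not pass (-0.09, limma adjusted p = 0.52, or -0.03 and 0.883 with marked spots left out). For Dnajb13 against Dnajb1 no size is given, because Dnajb13 was at the floor on every neonatal array. The ratio of Calr3 (brighter probe) to Calr gave 1.26 ± 0.56 (exact permutation p = 0.3), but 2.00 after normexp and 3.76 as the mean of both probes, without overlap (exact permutation p = 0.1 each). The second Calr3 probe against Calr did not overlap either, with that probe at the floor in neonatal testis. A ratio shows unequal change and not which of the genes changed.

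**Figure D2:**
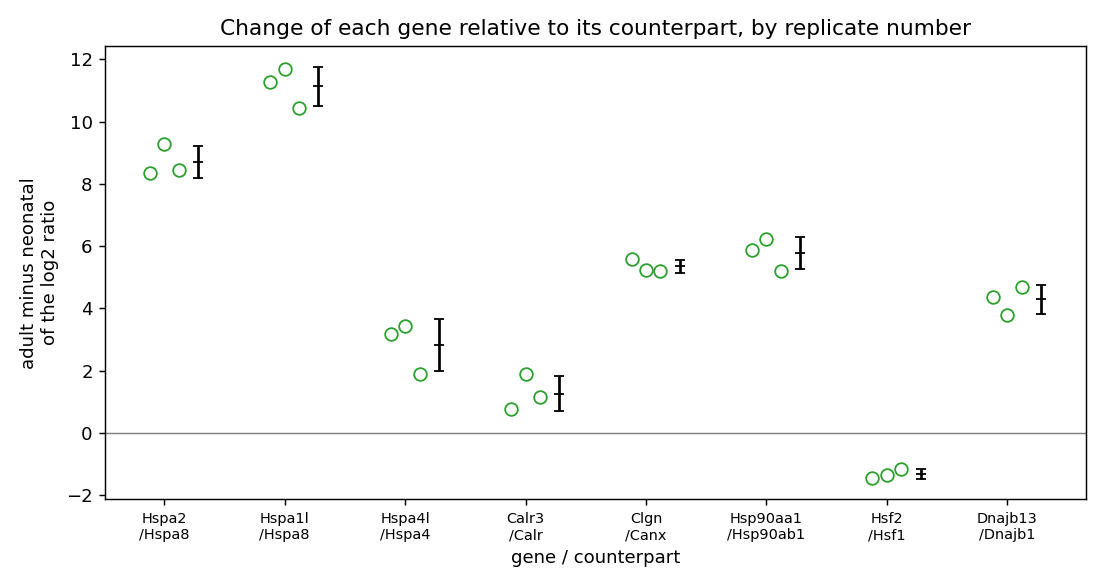
Adult minus neonatal difference of the log2 ratio of a gene to its counterpart (vertical axis) for 8 pairs (horizontal axis), 1 point per replicate number with all spots kept and bars for the mean ± SD of 3 differences. Dnajb13 was at the floor on the neonatal arrays, so its points depend on the floor. The points of Hspa1l to Hspa8 are centred on 11.14 and those of Hsf2 to Hsf1 on -1.32.

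The wider chaperone families were taken as 10 lists with 145 genes beside the members, of which 138 had a probe, 133 stood well above background somewhere and 91 could be tested. Of the 91, 22 rose (24.2%, beside 23.7% of 12831 genes tested) and 26 fell (28.6%, beside 35.9%), 11 of each by at least 5-fold in the fit (12.1%, beside 1666 genes higher and 1729 lower of the 12831). The 11 lower genes include Sugt1, for which the bound is under 5-fold. The median log2 fold change was -0.0048, against -0.36 over all genes (-0.32 with genes that have only a bound set to it). With marked spots kept, 34 of 133 rose and 43 fell (25.6% and 32.3%, beside 23.4% and 38.3% of all genes), and the median was -0.09 against -0.47.

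J-domain proteins deliver clients to HSP70. Of 6 tested in class B, 5 rose (83.3%, beside 23.7% of all genes), with a median log2 fold change of 5.04. None fell in the limma fit, where 35.9% of all genes did, and 0 were lower at an unadjusted p of at most 0.05. Dnajb7 rose at least 457-fold and Dnajb8 at least 119.6-fold. The limma adjusted p of their fitted changes, 0.000143 and 0.000231, does not test these bounds. Dnajb3, a further testis gene of this class, had a log2 fold change of 6.19 (SE 0.14, limma adjusted p = 0.000224). With marked spots kept, 7 of 10 rose (70.0%, beside 23.4% of all genes), and the median was 2.47. Dnajb1 was among them at 1.12 (limma adjusted p = 0.00307, and 0.86, under 2-fold, with arrays shifted to the median). In class C, 6 of 24 tested genes rose and 5 fell (25.0% and 20.8%, beside 23.7% and 35.9% of all genes), with a median of 0.26. Dnajc5b, a cysteine string protein of testis, was at least 818-fold higher, and its relative Dnajc5g had a log2 fold change of 6.14, while Dnajc5 itself, the form used in neurons, fell by 1.72 and Sec63, a partner of protein import into the endoplasmic reticulum, by 1.92. In class A, 1 of 4 rose (Dnaja2, 1.11) and 1 fell (Dnaja3, the mitochondrial form, by 2.55), which is 25.0% each beside those shares of all genes.

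Among the other HSP70 and HSP110 genes, 1 of 7 tested rose and 4 fell (14.3% and 57.1%, beside 23.7% and 35.9% of all genes), with a median of -1.17. The stress-inducible Hspa1a read 2.10, 2.12 and 1.87 on the neonatal arrays and -1.09, -1.08 and -1.23 on the adult arrays. It thus ran against its neighbour Hspa1l, and fell by 3.20 on the log2 scale (SE 0.14, limma adjusted p = 0.000682). Hspa1b fell by 2.57, and the mitochondrial Hspa9 rose by 1.08. Among regulators of HSP70, 3 of 6 rose and 1 fell, with a median of 1.11. Bag5 had a log2 fold change of 5.34 (SE 0.14, limma adjusted p = 0.000269), Bag1 of 1.44 and Bag6, which stabilizes HSPA2 in spermatocytes, of 1.33, while Bag2 fell by 1.16.

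Of the 13 HSP90 proteins and co-chaperones tested, 7 fell (53.8%, beside 35.9% of all genes) and 6 passed neither way, with a median of -1.21, or -1.08 with bounds in place of fitted values. In the limma fit none of them rose (0 of 13), while 1 was higher at an unadjusted p of at most 0.05 and 0 rose by the methods' t-test. With marked spots kept, 1 of 20 rose and 12 fell in the limma fit. Ahsa1, which activates the HSP90 ATPase, fell by 3.18 (SE 0.35, limma adjusted p = 0.00474). Sugt1 was at least 4.39-fold lower, as it was not well above background on any adult array. Fkbp6, needed for meiosis in males, fell by 1.42.

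In the chaperonins and prefoldin, 3 of 10 tested genes rose and 2 fell (30.0% and 20.0%, beside 23.7% and 35.9% of all genes), with a median of 0.62. Cct6b, the testis form of a subunit of the cytosolic chaperonin, had a log2 fold change of 8.20 (SE 0.14, limma adjusted p = 0.000158), and Tcp1, another subunit, of 1.11. Hspd1, the mitochondrial chaperonin, fell by 2.78 and the prefoldin subunit Vbp1 by 2.40. Of the small heat shock proteins, 1 of 6 rose (Hspb7, 1.14, limma adjusted p = 0.0451, a call lost under 19 of 25 alternatives) and 3 fell, among them Hspb8 by 2.62 and Hspb2 by 2.36. Odf1, a protein of the sperm tail's outer dense fibres in the same family, could not be tested with marked spots left out and had a log2 fold change of 11.01 with them kept (limma adjusted p = 1.24e-05). No probe was named for Hspb9 or Pdilt.

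Among lectins, disulfide isomerases and partners in the endoplasmic reticulum, 1 of 12 rose and 3 fell (25.0%, beside 35.9% of all genes), with a median of -0.12. With marked spots kept, 3 of 20 rose and 9 fell (45.0%, beside 38.3% of all genes), and the median was -0.44. Ero1a, an oxidase, rose by 1.12, while the glucosidase subunit Ganab fell by 2.45 and Sdf2 by 1.60. Of the 3 heat shock factors and partners tested, 1 rose (33.3%, beside 23.7% of all genes) and none fell. It was Hsf5, a factor of spermatocytes, with a log2 fold change of 7.98 (SE 0.16, limma adjusted p = 0.000189).

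Changes of various sizes in these lists depend on the setting. Dnaja2, Hspa9, Ero1a and Tcp1 came under 2-fold with arrays shifted to the median, and Bag1, Dnaja2, Ero1a and Tcp1 after quantile normalization. Bag2 and Ero1a were not called without the replicate block, nor Sugt1 after normexp. Counting left-out arrays too, Ero1a lost its call under 10 of 25 alternatives, Tcp1 under 9 of 23, Bag2 under 6 of 23 and Dnaja2 under 4 of 23. The methods' t-test on the same pairs, before adjustment, did not call Ahsa1, Bag6, Dnaja3, Dnajc5, Hspd1 or Tcp1. After adjustment it also left out Ccnb1, Dnajc5b, Fkbp6, Hspa1b, Hspb2, Hspb8, Sdf2, Sugt1 and Vbp1. With marked spots kept, 1 of 11 other HSP70 and HSP110 genes rose and 5 fell, and 5 of 10 HSP70 regulators rose and 2 fell. In class C 7 of 28 rose and 5 fell, in the chaperonins and prefoldin 4 of 17 rose and 5 fell, and in the small heat shock proteins 3 of 9 rose and 4 fell. Of all genes 23.4% rose and 38.3% fell in that setting.

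**Figure D3:**
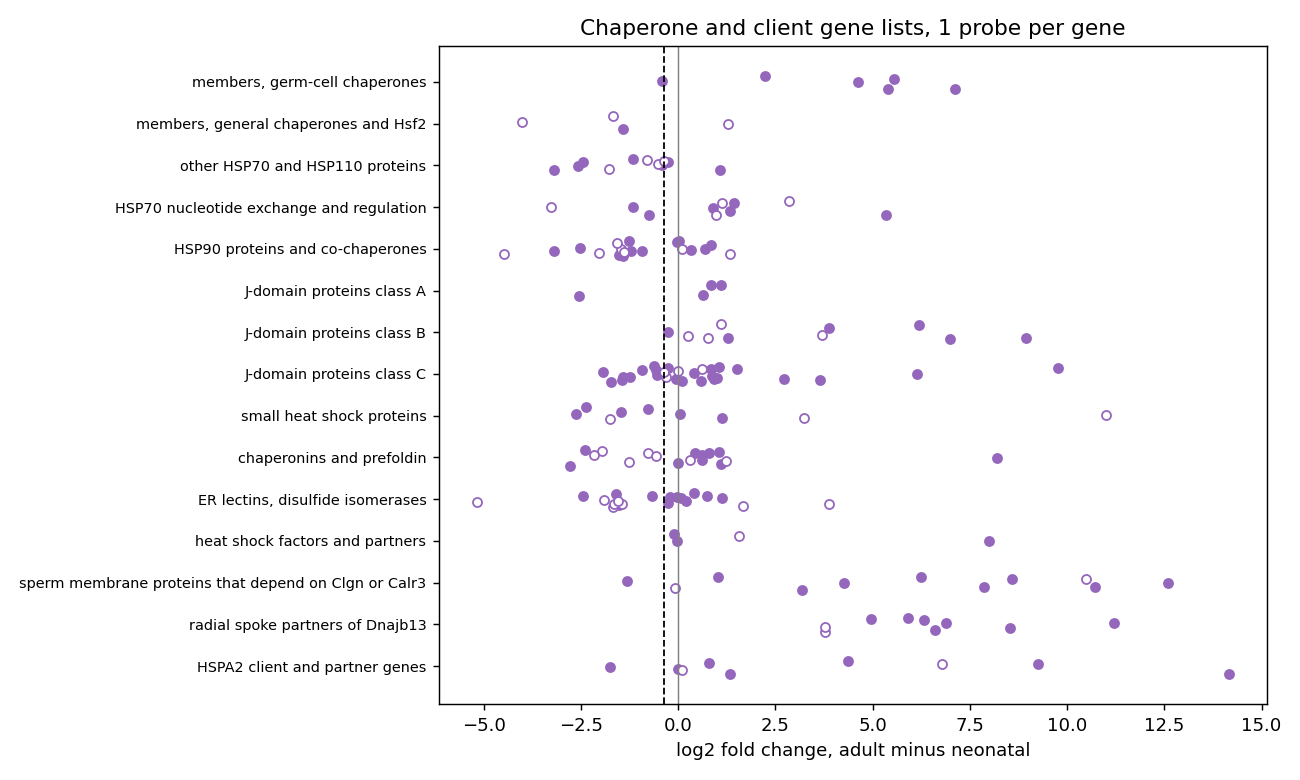
Log2 fold change, adult minus neonatal (horizontal axis), of the genes of 15 lists (vertical axis), 1 point per gene from its brighter probe, filled where marked spots were left out and open where the gene could be tested only with them kept, with a dashed line at the median of all genes, -0.36. Fitted values are drawn also for genes that have only a bound, and class B J-domain proteins reach 8.93.

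Proteins that depend on these chaperones or work beside them were listed as well, also with earlier results of these data known. Of the sperm membrane proteins that depend on Clgn or Calr3, 8 of 9 tested rose and 1 fell, with a median of 6.25, where 23.7% of all genes rose and 35.9% fell. Adam2, the beta subunit of fertilin, rose (limma adjusted p = 0.00012), with no fold given because it was well above background on 1 of 3 neonatal arrays, Adam6a was at least 1566-fold higher, and the sulfotransferase Tpst2 fell by 1.32. All 7 tested partners of Dnajb13 in the radial spoke list rose, with a median of 6.61. Morn3 was well above background on 1 neonatal array and its signal was at the floor on all 3, so no fold is given (limma adjusted p = 0.000122), and Rsph6a was at least 344-fold higher. Among clients and partners of HSPA2, 4 of 7 rose and 1 fell, with a median of 1.33. The transition proteins, which replace histones in spermatids, rose by 14.17 (Tnp2) and 9.26 (Tnp1), while the cyclin Ccnb1 fell by 1.75.

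The genes most like 4 members were sought among mRNA probes with no marked spot, by the root mean square difference of the 6 centred log2 values. The members' own marked spots were kept, which were 2 for Hspa2, 0 for Clgn, 5 for Hspa8 and 3 for Calr. Values at the floor have no order, so only probes well above background on all 6 arrays are compared, a choice made after seeing the data. For Hspa2 they were Cldn34b1 (0.139), Cyp2c23 (0.148) and Ppm1b (0.148), of 4380 probes. For Clgn they were Tex26 (0.0819), Slc22a18 (0.118) and Ppp1r27 (0.175). Calr was followed by Ssna1 (0.149), Nos1ap (0.219) and Tbc1d9 (0.238). The differences were larger for Hspa8, with Akr1b7 (0.417), Zfp871 (0.583) and AW551984 (0.664).

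The label of the tissue was checked against markers of its cells, as the summed scaled signal of a list on each array, with all spots kept. The brightest probe is named to show what leads a sum, and signals of different probes do not rank their genes. Counts of markers stand beside 23.7% of all genes higher and 35.9% lower, or 23.4% and 38.3% with marked spots kept. The 10 spermatid markers summed to 2.44, 2.71 and 3.20 on the neonatal arrays and to 1319, 1530.0 and 1816 on the adult arrays. All 8 that could be tested rose, and Prm2 had the brightest probe in adult testis. The 10 spermatocyte markers summed to 22.6, 19.7 and 29.1 on the neonatal and to 233, 247 and 297 on the adult arrays, and 5 of 8 tested rose and 1 fell, with Pgk2 the brightest in adult testis. The 8 spermatogonial markers went from 95.7, 105.9 and 93.5 to 21.6, 22.9 and 18.1, with Uchl1 the brightest at both ages and Gfra1 not well above background at either, and 4 of 6 tested fell while 1 rose.

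Somatic markers moved too, and their counts again stand beside 23.7% of all genes higher and 35.9% lower. The 9 Sertoli cell markers with a probe summed to 129.5, 135.7 and 104.6 on the neonatal and 48.6, 41.9 and 41.6 on the adult arrays, with Inha the brightest in neonatal and Amhr2 in adult testis, and all 4 tested fell. The 8 Leydig cell markers went from 32.0, 35.1 and 30.3 to 82.8, 69.3 and 63.9, led by Hsd3b1 and then by Insl3, where 2 of 4 tested rose and 1 fell (4 and 2 of 8 with marked spots kept). The peritubular myoid list went from 21.7, 22.0 and 27.1 to 4.79, 4.34 and 6.55, led by Myh11, with Cnn1 not well above background, and 3 of 4 tested fell. In the next lists the same order of arrays is kept. Endothelial markers, led by Cdh5, went from 7.65, 8.79 and 14.9 to 2.14, 1.77 and 3.25 (4 of 5 tested fell), and red blood cell markers, led by Hbb-bt and then Alas2, from 16.7, 20.7 and 18.5 to 3.71, 5.62 and 4.26, with Hba-x not well above background in adult testis. Of the 3 red blood cell markers tested 1 rose and 1 fell, with a median of 0.05, and with marked spots kept 1 of 4 rose and 2 fell. Macrophage markers were at 6.19, 5.92 and 5.17 and then 5.21, 5.17 and 5.09, led by Csf1r and then Mrc1, and 1 of 3 tested rose. The sums of spermatid, spermatocyte and Leydig cell markers were higher in adult testis, as were 5 of the 6 germ-cell chaperones. The sums of spermatogonial, Sertoli cell, peritubular myoid, endothelial and red blood cell markers were lower in adult testis, as were Hspa8, Calr and Hsf2. Hsp90aa1, the remaining general member, was higher with marked spots kept. The part of cell numbers in these changes was not tested.

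RefSeq promoters (build GRCm38.p6, 250 bases before to 50 after a start) were at hand for 7 of the 10 members, as 8 sequences of 300 bases. They were searched on both strands for the letters GAANNTTC and TTCNNGAA, units of the heat shock element, and TGACGTCA, the cAMP response element. These letters are held by 7.86%, 8.52% and 1.79% of the 32851 promoters given, and none of the 8 does. At such shares, finding none in 8 sequences says little about these genes. For Hspa2, Hspa4l and Hsf2 the sequence lies inside the gene as annotated, so its outermost start was not searched. The promoters of the HSP70 genes that rose are shown, with no capitals as no motif was found. Hspa2 is on the plus strand at chr12:76404120-76404419 and Hspa1l on the plus strand at chr17:34972453-34972752. The 2 starts of Calr3 are shown because its probes disagree, on the minus strand at chr8:72443729-72444028 and chr8:72435107-72435406, and the promoter file used here does not link a start to a transcript.
Hspa2: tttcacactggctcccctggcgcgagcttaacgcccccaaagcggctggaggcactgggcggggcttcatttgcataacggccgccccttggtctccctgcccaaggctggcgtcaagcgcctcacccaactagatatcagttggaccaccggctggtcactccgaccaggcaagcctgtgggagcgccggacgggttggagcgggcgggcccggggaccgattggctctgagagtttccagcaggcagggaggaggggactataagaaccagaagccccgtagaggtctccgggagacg
Hspa1l: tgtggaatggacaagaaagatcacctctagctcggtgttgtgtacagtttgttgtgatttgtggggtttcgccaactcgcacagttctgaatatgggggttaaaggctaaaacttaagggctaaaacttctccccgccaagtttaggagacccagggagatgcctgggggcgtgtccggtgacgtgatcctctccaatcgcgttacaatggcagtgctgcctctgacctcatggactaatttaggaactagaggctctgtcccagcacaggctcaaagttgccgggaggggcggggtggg
Calr3, upstream start: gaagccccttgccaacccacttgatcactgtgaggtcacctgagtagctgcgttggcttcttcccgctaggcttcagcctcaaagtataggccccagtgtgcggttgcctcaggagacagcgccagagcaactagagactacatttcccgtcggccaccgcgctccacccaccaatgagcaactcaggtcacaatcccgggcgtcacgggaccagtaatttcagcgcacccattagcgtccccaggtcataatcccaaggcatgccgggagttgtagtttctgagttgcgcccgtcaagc
Calr3, downstream start: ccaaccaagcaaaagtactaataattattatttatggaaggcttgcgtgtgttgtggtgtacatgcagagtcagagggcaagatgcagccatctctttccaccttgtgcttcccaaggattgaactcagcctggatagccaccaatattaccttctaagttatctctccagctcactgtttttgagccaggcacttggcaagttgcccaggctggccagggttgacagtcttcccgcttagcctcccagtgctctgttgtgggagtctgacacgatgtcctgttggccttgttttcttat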

How the data were processed

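The authors hybridized Cy3-labelled cDNA from whole testis to 1-colour arrays and read them with Agilent Feature Extraction 10.5.1.1. The authors deposited scanner files, whose background-subtracted intensity per spot was used here. The log2 values that the authors deposited as a table, already normalized, served as an alternative. Of 22464 mRNA probes, 97.5% were named by 1 RefSeq gene.

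Signals were divided by the array's 75th percentile, taken over 37181 probes, floored at -7.22 (a signal of 5 on the array where that is highest) and put on the log2 scale. Spots marked as outliers were left out. Tests needed 1 array or more well above background and 2 complete pairs, and used limma 3.58.1 in R 4.3.3 and a block for the replicate number, because the study's methods used a paired test. The fit was tested on simulated data in which only a small share of the probes changed. There it missed most of the changed probes and called none in the wrong direction. A far larger share changed in the real data, so that recovery does not carry over to them. Python 3.11.15, pandas 2.3.3, numpy 2.4.6 and matplotlib 3.10.9 were used for the rest. Normexp was run on median spot signals, the column the files hold, and with an offset of 50. That alternative thus changed the signal column, the correction and the offset together, and their separate parts were not tested. The number of arrays limits the precision, and the lowest signal well above background lay between 6.09 and 24.0.

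To check the pairing, deviations from the mean of an age were correlated between ages. Arrays of the same number correlated at 0.497, 0.429 and 0.777, and arrays of the same slide with other numbers at 0.470 and 0.508, so on slide 1 arrays of the same number were no more alike than others. Between slides the correlations were -0.690 to -0.556, where deviations within an age sum to 0.

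The members and lists were chosen with earlier results of these data known. A gene is represented by its probe with the highest mean. Genes named are all members, from each list the 2 largest rises and 2 largest falls at 2-fold by fitted value (values at the floor have no true order), all counterparts, 8 genes known from testis (Bag6, Pdilt, Cct6b, Hspb9, Dnajb3, Dnajb8, Fkbp6 and Odf1), and the 3 genes most similar to Hspa2, Clgn, Hspa8 and Calr. Markers were listed for 9 cell types. The alternatives were other scalings, floors, background correction, filters, blocks and tests, the mean of probes, and leaving out arrays. Proteins were not analysed here.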

Additional observations from a re-analysis of the deposited data

How the results depend on the processing

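No change of a member past the test reversed under any alternative run. Of 291 alternative values of the 12 member probes 275 kept their direction and side of the test, meaning adjusted p and 2-fold together. The 129 of the paired genes kept their direction. The adjusted p from limma for the brighter Calr3 probe was 0.0345 after quantile normalization, 0.0442 with the shift to the median and 0.0496 without replicate 1. At -0.77, -0.67 and -0.71 it stayed under 2-fold there and was not called. For genes and pairs that cannot be tested with marked spots left out, each alternative was run again with them kept, a choice made after seeing the data. Calr ended its call with no filter on dim probes and with the methods' t-test (-1.67 each) and within slide 1 (-1.54), and leaving out arrays gave -2.22 to -1.19. Hsf2 lay between -1.68 and -1.17 when arrays were left out. Hsp90aa1 was 0.53 after quantile normalization and Hspa4l was 2.25 with the methods' t-test. Other named genes kept direction and side of the test in 943 of 1031 values, and 0 calls reversed. The brighter probe of Calr3 was 0.43 after normexp, and the mean of both probes was 2.09 and passed.

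Without the replicate block 1915 mRNA probes were higher and 2038 lower, beside 1908 and 2075 with the pairing, and no call of a member changed. Lower probes came to 1036 with normexp, which also used median spot signals and an offset of 50, and to 1263 with the methods' t-test after adjustment. They came to 2600 after quantile normalization, 2667 with the shift to the median and 2816 in the authors' log2 values. At 2-fold the counts were 3530 higher and 5529 lower. Leaving out arrays gave 846 to 2142 higher and 922 to 2400 lower probes, as fewer probes could be tested without replicate 1 or 2. Of all calls 47.9% were higher, and 59.1% after normexp. The share was 40.3% after quantile normalization, 39.8% with the shift to the median and 39.9% in the authors' log2 values. The median over mRNA probes was -0.40 and moved to -0.64 by quantile normalization, -0.65 by the shift to the median, -0.71 in the authors' log2 values and 0.02 by normexp, and changes are relative to it. The general members called were 1 with marked spots kept and 1 at 2-fold, against 0. Wider chaperone genes were 22 higher and 26 lower at 2-fold, 6 lower after normexp and 3 lower by the methods' t-test, and 1 to 14 in either direction when arrays were left out. The causes were not tested. Signal over background limits Dnajb13 and the second Calr3 probe to bounds. The normexp alternative, with median spot signals and an offset of 50, gave 3.44 and 2.30, under both bounds. Which of these choices lowered the values was not tested.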
